A study of Mus musculus with 300 samples.

Results

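The G2 and mitosis genes described here are 50 protein-coding mouse genes that act from mitotic entry to cytokinesis, among them the kinase Cdk1, its B-type cyclins and the spindle proteins they act on. They were taken by name from a given list, and all 50 were found among the 23354 gene names of the table. All 50 also passed the filter on low values (30 or more cells at 1 FPKM, fragments per kilobase of transcript scaled to library size), which 10411 gene names passed. By role they fell into 7 genes of CDK1 control, 7 mitotic kinases and chromosomal passenger proteins, 5 spindle checkpoint genes, 6 kinetochore genes, 8 spindle motors and microtubule-binding proteins, 6 cytokinesis genes, 6 genes of chromosome structure and 5 genes of anaphase and mitotic exit.

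The study profiled 300 single spermatogonia from untreated adult mice carrying an EGFP reporter for ID4, an inhibitor of DNA binding that marks stem cells among spermatogonia. Testes of several animals were pooled for each of 4 preparations, and the cells were sorted as bright for the surface protein CD9 and positive for EGFP, so all groups share this gate, and EGFP-negative cells were not analysed here. Cells were imaged on a Fluidigm C1 chip and graded by their EGFP signal into quartiles, with the brightest cells in Q1 and the dimmest in Q4. Whether the quartiles were set within each preparation or over all cells is not given in the sources used here. The quartiles held 79, 78, 71 and 72 cells from Q1 to Q4, and 1 preparation and quartile held 15 to 22 cells. Strain and exact age are not given in the sources used here, and the number in each cell's title was read as its preparation.

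Mitosis genes are typically switched on late in the cell cycle: their transcripts build up through G2, peak as the nuclear envelope breaks down and are cleared as cells leave mitosis. Many of them are held off early in the cycle and activated later through a promoter element called the cell cycle genes homology region, whose best known form reads TTTGAA, often near CCAAT boxes bound by the factor NF-Y. In the testis, spermatogonia divide by mitosis both when they renew the stem cell pool and when they expand before meiosis, so transcripts of this programme are known from stem and progenitor spermatogonia alike.

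To show what the members share in sequence, promoter windows from RefSeq (GRCm38.p6, 250 bases before to 50 bases after an annotated start) were matched by symbol, which gave 46 windows for 43 of the 50 genes. The stretches that follow run from 110 bases before to 30 bases after a start, 5′ to 3′ on the gene's strand, and belong to the members whose values or likeness the results turn on. Capitals mark TTTGAA, its variant TTTAAA and CCAAT, each on either strand, so TTCAAA and ATTGG are the same motifs read from the other strand.
Prc1 (chr7:80294341-80294480, plus strand): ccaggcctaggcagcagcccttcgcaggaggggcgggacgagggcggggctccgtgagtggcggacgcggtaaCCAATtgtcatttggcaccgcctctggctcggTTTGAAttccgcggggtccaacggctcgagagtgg
Top2a (chr11:99024160-99024299, minus strand): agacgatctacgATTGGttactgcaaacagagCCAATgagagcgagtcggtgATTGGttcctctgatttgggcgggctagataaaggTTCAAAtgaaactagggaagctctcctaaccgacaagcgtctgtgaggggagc
Cdk1 (chr10:69352883-69353022, minus strand): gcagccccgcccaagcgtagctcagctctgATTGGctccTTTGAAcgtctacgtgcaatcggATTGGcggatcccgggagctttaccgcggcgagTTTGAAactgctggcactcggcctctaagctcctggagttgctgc
Plk1 (chr7:122159325-122159464, plus strand): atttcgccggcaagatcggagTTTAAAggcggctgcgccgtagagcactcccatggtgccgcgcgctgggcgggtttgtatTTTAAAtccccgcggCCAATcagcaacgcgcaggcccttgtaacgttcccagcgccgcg
Aurka (chr2:172370541-172370680, minus strand): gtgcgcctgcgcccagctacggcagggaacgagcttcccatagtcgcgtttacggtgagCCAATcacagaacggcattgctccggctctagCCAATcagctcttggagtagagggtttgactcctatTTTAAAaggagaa
Ccnb1 (chr13:100786457-100786596, minus strand): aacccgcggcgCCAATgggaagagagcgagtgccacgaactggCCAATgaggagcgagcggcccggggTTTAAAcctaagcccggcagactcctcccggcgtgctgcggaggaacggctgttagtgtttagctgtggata
Mad2l1 (chr6:66535111-66535250, plus strand): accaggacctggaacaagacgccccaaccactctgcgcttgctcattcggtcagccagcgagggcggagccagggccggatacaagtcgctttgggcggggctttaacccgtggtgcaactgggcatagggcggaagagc
Pttg1 (chr11:43425952-43426091, minus strand): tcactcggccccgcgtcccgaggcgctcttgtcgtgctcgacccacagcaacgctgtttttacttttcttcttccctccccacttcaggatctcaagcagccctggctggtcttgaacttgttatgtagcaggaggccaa
Prc1, Top2a and Cdk1 hold TTTGAA together with CCAAT in these stretches, while Plk1, Aurka and Ccnb1 show TTTAAA and CCAAT. In Plk1 and Aurka a TTTGAA lies across or just past the end of the stretch. Mad2l1 and Pttg1 hold none of the motifs in their windows, but these windows miss the gene start annotated in GENCODE. The Mad2l1 window ends at base 66535270, before that start at 66535390. The Pttg1 window lies inside the gene, whose start on the minus strand is at 43426251. The bases at those starts were thus not searched.

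Across the 43 matched members, TTTGAA was found in 33 genes (76.7%), against 20.2% of 27025 genes with a window and 13.7% of the 7846 of these that passed the filter. CCAAT was found in 34 members (79.1%), against 41.1% and 44.9%. Both motifs stood in the windows of 29 members (67.4%), against 7.97% and 5.77%. TTTAAA was found in 9 members (20.9%), against 14.9% and 10.5%. TTTGAA and CCAAT thus stood in a larger share of the member windows than of all windows of the same length. Of 46 TTTGAA matches in member windows 33 (71.7%) lay within 50 bases of the start, against 25.3% of 6737 matches in all windows. Bub3, Ect2 and Prc1 have overlapping windows, and a match in the overlap was counted once for each window. Only 1 pair of matches of different motifs shared bases in the member windows. In 31 of the 46 member windows the bases after the start stood in a transcript of the gene, so some windows may miss the start in use. A match describes letters in a window and was not tested as a binding site.

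Depth and sample quality bear on these genes as follows. A cell listed 2934 to 7817 genes at 1 FPKM or more, and the means of preparations 1 to 4 were 4368, 5813, 5572 and 6216, so preparation 1 stood below the other 3. Q1 cells listed 5687 ± 697 genes and Q4 cells 5356 ± 810 (SD, n = 4). Read depth, recovered only as a ratio between cells, was 1.02 ± 0.14 for Q1 and 1.01 ± 0.12 for Q4 (SD, n = 4). The list of undifferentiated spermatogonium markers was matched in 274 of 300 cells, and less often in the dimmest quartile. It was matched in 78 of 79 cells in Q1, 73 of 78 in Q2, 68 of 71 in Q3 and 55 of 72 in Q4. Another list was matched by 13 cells (8 leukocyte, 4 spermatid, 1 peritubular myoid). No 2 columns of the table were identical. An FPKM of 0 says only that a gene is listed at 0. Among common genes, Tpt1 was listed at 0 in 92 cells and Gapdh in 1, while Actb, Eef1a1 and Rplp0 were listed above 0 in every cell.

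Most cells of every quartile carried most of these transcripts. A cell listed a median of 40 of the 50 genes at 1 FPKM or more, with a range from 16 to 50, and 47 members were listed in at least 150 of the 300 cells. All 50 were listed in 7 cells, 45 or more in 90 cells (30.0%), and fewer than 25 in 25 cells. Bub3, part of the spindle checkpoint, was listed in 292 cells, and Cdc25b, a phosphatase that activates CDK1, in 42. Mki67, a chromosome surface protein used as a proliferation marker, was listed in 182 cells, the polo-like kinase gene Plk1 in 128 and the cyclin gene Ccnb1 in 278.

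Levels are given from here on as the mean over cells of log2(FPKM + 1), which rises both when more cells list a gene and when those cells hold more of it. FPKM is scaled to transcript length, but reads of genes with copies or shared exons are uncertain. Levels of different genes thus give only a rough order. Among common genes, Gapdh and Tpt1 had medians of 23.6 and 2.03 FPKM, beside 1116 for Actb and 1216 for Eef1a1. Over all 300 cells the highest levels were those of Mad2l1 (7.12), Bub3 (7.09), Pttg1 (6.85), Cdca8 (6.81) and Spc25 (6.13), and the lowest was that of Cdc25b (0.56). The median gene that passed the filter stood at 2.08 in Q1 and 1.90 in Q4, where the mean over the 50 members was 4.46 and 4.42.

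**Figure D1:**
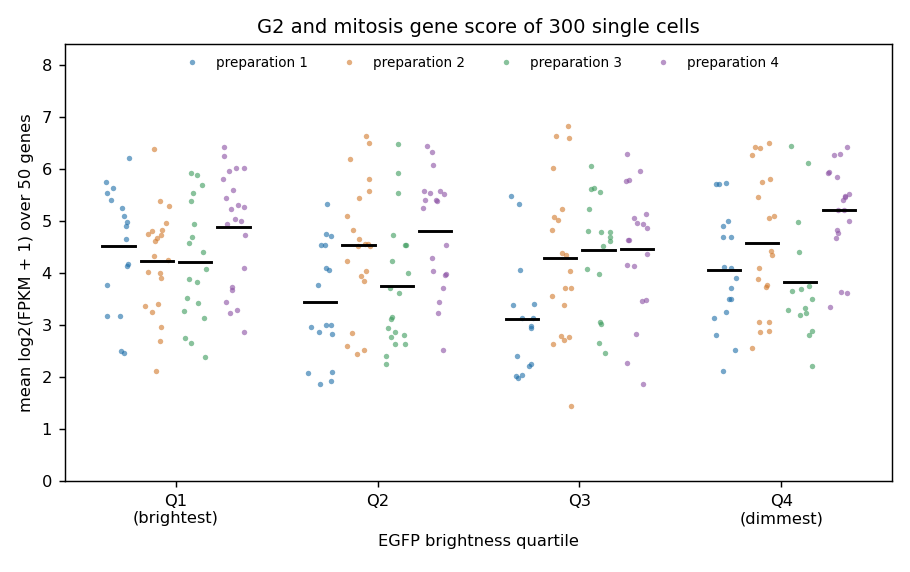
Mean log2(FPKM + 1) over the 50 G2 and mitosis genes (y axis) in each of 300 cells, by EGFP quartile (x axis) and preparation (colour); points are cells and black bars are the mean of each preparation and quartile. Cells spread from 1.45 to 6.83 with wide overlap between quartiles, and the lowest bars are those of preparation 1 in Q2 (3.44) and Q3 (3.12).

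Averaged over the 50 genes, the brightest and dimmest cells differed by less than the preparations did among themselves. From Q1 to Q4 the mean over members was 4.46 ± 0.32, 4.13 ± 0.65, 4.08 ± 0.64 and 4.42 ± 0.61 (SD, n = 4). In preparations 1 to 4 it stood at 4.52, 4.22, 4.21 and 4.88 in Q1 and at 4.06, 4.57, 3.83 and 5.20 in Q4. Q1 was above Q4 in preparations 1 and 3 and below it in preparations 2 and 4, so that the difference, 0.04 ± 0.44 (SD, n = 4), was smaller than its spread. When the 16 means were centred on their median genes that difference was -0.14, again smaller than its spread. The plot of the mean over members in each cell shows that cells within 1 preparation and quartile differed far more than the groups did. Of the sum of squares of this mean over cells, 83.5% lay within preparation and quartile, 9.61% between preparations and 1.64% between quartiles. Single cells ran from 2.12 to 6.42 in Q1 and from 2.12 to 6.51 in Q4.

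No member differed between Q1 and Q4 at an adjusted p under 0.05 (limma, Benjamini-Hochberg over 10411 genes), where 3.25% of all genes tested did. At an unadjusted p under 0.05 there were 5 members (10%), against 16.3% of all genes. Of these, Pttg1 and Cdc25b had the higher level in Q1, and Aurka, Hmmr and Kif20a the higher level in Q4. Over the 50 genes 27 differences lay above 0, as did 59.6% of all genes, and 23 below, with a median of 0.04 and a range from -0.97 to 0.91, beside a median of 0.10 over all genes tested. Differences of 1 sign in all 4 preparations were found for 4 members (Cdc25b, Aurka, Ckap2 and Pttg1), against 22.3% of all genes. Standard errors ran from 0.20 to 0.51, so the 95% intervals were wide, as the plot of the differences shows. With such centring, 19 differences lay above 0 and the members' median was -0.14, beside -0.08 for all genes. With the number of detected genes as a covariate 13 lay above 0 and the median was -0.38, beside -0.01. A p-value here sets a difference against the spread of quartile differences between the 4 preparations of pooled animals. That spread was estimated over all 16 means and moderated across genes, with each preparation's own level removed as a block.

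The trend over all quartiles gave the same count. No member passed for a steady step towards the next brighter quartile (4.25% of all genes did), and 6 members had an unadjusted p under 0.05, against 17.7% of all genes. Those were Bub1, Cenpa and Pttg1 with a slope above 0 and Aurka, Hmmr and Kif20a with a slope below 0. Without preparation 1, Kif20a passed for the trend with a slope of -0.43 per step (SE 0.12, adjusted p = 0.0462).

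**Figure D2:**
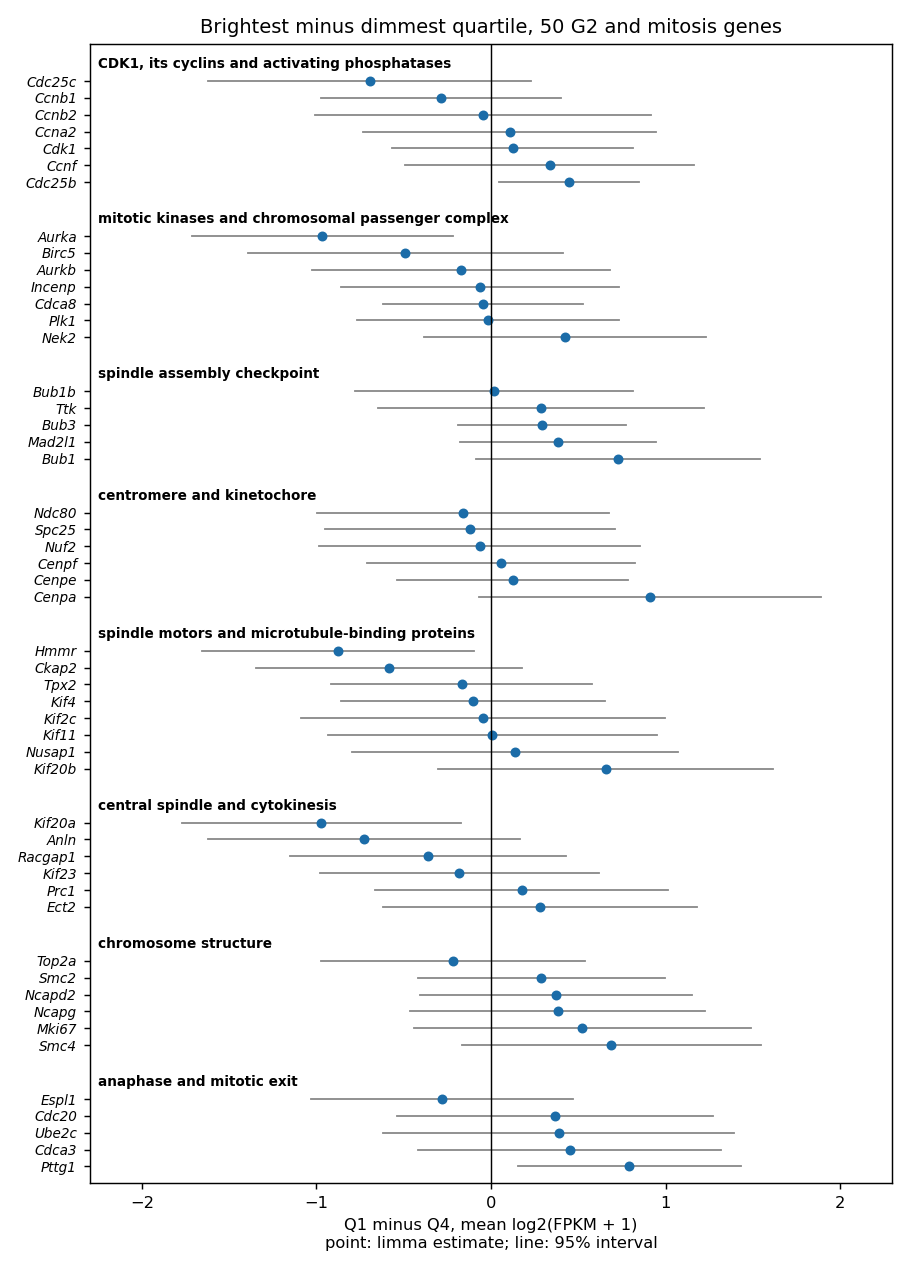
Difference in mean log2(FPKM + 1) between Q1 and Q4 (x axis) for each of the 50 genes, grouped by role (y axis); points are limma estimates over 4 preparations and lines their 95% intervals. The points run from -0.97 to 0.91, and the intervals of Cdc25b, Pttg1, Aurka, Hmmr and Kif20a leave out 0 before adjustment.

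Genes of CDK1 control showed no common direction between bright and dim cells. Cdk1, the kinase that drives mitotic entry, stood at 4.19, 3.89, 3.28 and 4.61 in Q1 and at 3.78, 4.19, 3.50 and 4.0 in Q4 in preparations 1 to 4. Those values overlapped, and the difference was 0.12 (SE 0.34, adjusted p = 0.903). In the middle quartiles Cdk1 stood lower, at 3.13 ± 0.53 in Q2 and 3.13 ± 0.25 in Q3, beside 3.99 ± 0.56 in Q1 and 3.87 ± 0.30 in Q4 (SD, n = 4). Its 4 values in Q3 were all below its 4 values in Q4 (1 member, against 1.86% of all genes), but the adjusted p was over the threshold in each pair of quartiles (0.264 to 0.997). Ccnb1, the B-type cyclin that pairs with CDK1 at mitotic entry, stood at 5.66, 5.01, 4.63 and 6.21 in Q1 and at 5.68, 5.69, 5.20 and 6.10 in Q4 (difference -0.29, SE 0.33, adjusted p = 0.742). Reads of Ccnb1 are uncertain, since 3 annotated copies elsewhere in the genome match its transcript at 97.4% to 99.2% identity. Cdc25c, a phosphatase that removes the inhibitory phosphates of CDK1, stood at 3.18, 2.17, 2.54 and 4.15 in Q1 and at 2.69, 3.94, 4.29 and 3.91 in Q4. Its difference was -0.70 (SE 0.45, adjusted p = 0.475), with Q1 above Q4 in 2 preparations and below in 2. The related phosphatase Cdc25b stood higher in Q1 in all 4 preparations (difference 0.45, SE 0.20, adjusted p = 0.247), but in Q1 only 16 of 79 cells listed it and in Q4 only 7 of 72. Cyclin genes Ccna2, Ccnb2 and Ccnf differed by 0.11, -0.04 and 0.34, with adjusted p from 0.753 to 0.976.

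Among the mitotic kinases, Aurka had the lowest level in Q2 and the highest in Q4, and it was the one member to pass in any pair of quartiles. Aurka encodes aurora kinase A, which matures centrosomes and helps build the spindle poles. In preparations 1 to 4 it stood at 3.27, 3.16, 2.55 and 4.28 in Q1, at 1.75, 2.87, 2.12 and 3.86 in Q2, at 2.37, 3.33, 2.41 and 3.69 in Q3, and at 3.64, 4.52, 2.88 and 6.09 in Q4. Within each preparation Q4 held the highest value of the 4 quartiles, although the ranges of Q2 and Q4 overlapped because preparations differed. Q2 lay below Q4 by a difference of -1.63 (SE 0.36, adjusted p = 0.0449). That p was adjusted over genes within this pair and not across the 6 pairs. In that pair 0.307% of all genes passed, and 0.0576% were lower in Q2. Across 15 alternatives the difference kept its sign, and the adjusted p ran from 0.0292 to 0.634. It passed the threshold in 4 of them and did not in 11, among these each fit without 1 of the 4 preparations. Against Q1, Q4 was above in all 4 preparations (Q1 minus Q4 -0.97, SE 0.36, adjusted p = 0.160). From Q1 to Q4 Aurka was listed in 59.5%, 44.9%, 50.7% and 70.8% of cells, with median values of 13.1, 0.54, 1.48 and 51.5 FPKM. The share of cells that list it and its median value were thus both lowest in Q2 and highest in Q4.

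The other kinases and the chromosomal passenger complex, which corrects faulty attachments of chromosomes to the spindle, showed smaller differences. Plk1, which acts at centrosomes, kinetochores and the cleavage site, stood at 2.34, 1.51, 1.81 and 2.86 in Q1 and at 2.27, 2.35, 1.12 and 2.86 in Q4 (difference -0.02, SE 0.36, adjusted p = 0.988). The 95% interval of the Plk1 difference, -0.77 to 0.73, holds changes of either sign. Cdca8, the passenger subunit borealin, had the highest level in this group, with 5.84, 6.81, 6.86 and 7.53 in Q1 and 6.62, 6.64, 6.40 and 7.56 in Q4 (difference -0.05, SE 0.28, adjusted p = 0.958). Birc5, the subunit survivin, Aurkb, the complex's kinase, and Incenp, its scaffold, differed by -0.49, -0.17 and -0.06. Nek2, a kinase that separates centrosomes, differed by 0.42, and it was the one gene of the 7 with a difference above 0.

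**Figure D3:**
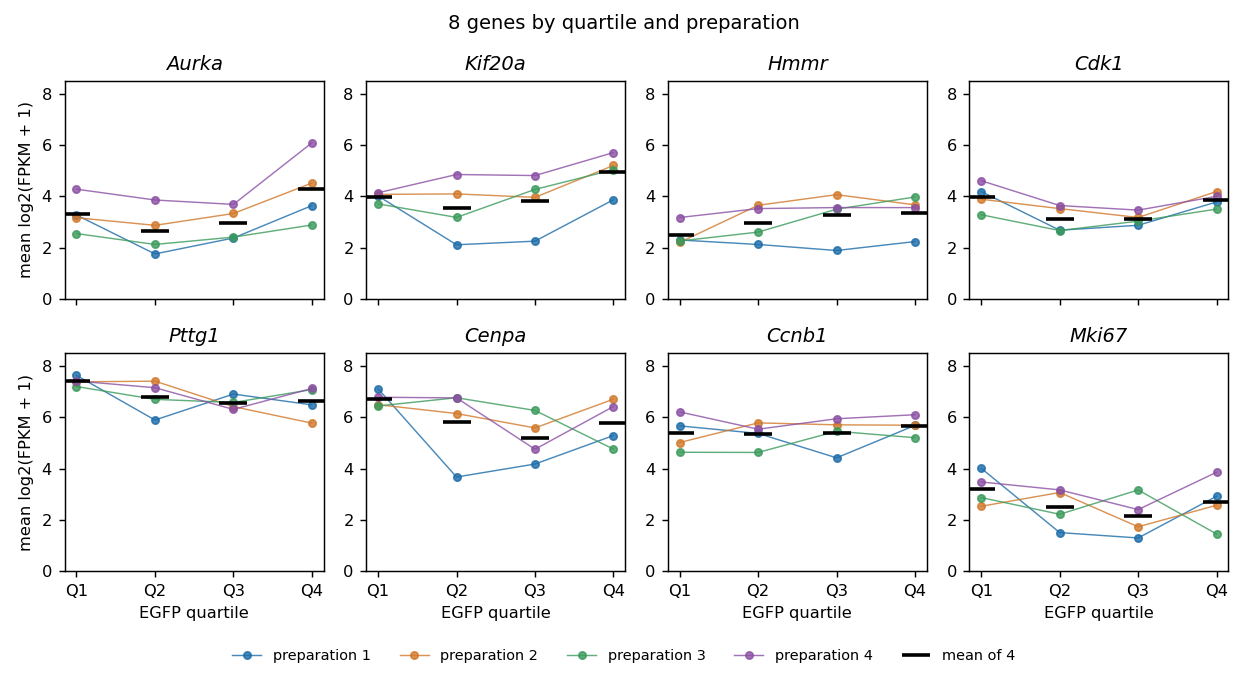
Mean log2(FPKM + 1) (y axis) of 8 genes by EGFP quartile (x axis) in each of 4 preparations (coloured lines), with black bars for the mean of the 4. Aurka is highest in Q4 in each preparation, from 2.88 to 6.09, and the Pttg1 values in Q1 (7.20 to 7.63) stand above those in Q4 (5.77 to 7.12).

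All 5 genes of the spindle assembly checkpoint, which holds anaphase until each chromosome is attached, had a difference above 0 between Q1 and Q4, against that 59.6% of all genes. Their median was 0.29, and none passed. With such centring 4 of the 5 lay above 0, and with detected genes as a covariate 2 did. Bub1, a checkpoint kinase at kinetochores, stood at 6.20, 5.72, 5.50 and 5.48 in Q1 and at 5.54, 4.59, 4.01 and 5.84 in Q4. Its values overlapped, preparation 4 went the other way, and the difference was 0.73 (SE 0.40, adjusted p = 0.373). Mad2l1, whose product blocks the activator CDC20, stood at 8.05, 7.36, 7.39 and 7.11 in Q1 and at 7.16, 7.44, 7.40 and 6.37 in Q4 (difference 0.38, SE 0.27, adjusted p = 0.524). Bub3, which brings BUB1 to kinetochores, stood at 7.74, 6.85, 6.92 and 7.45 in Q1 and at 6.74, 6.43, 7.12 and 7.48 in Q4 (difference 0.29, SE 0.23, adjusted p = 0.586). Both genes had listed levels among the highest of the members in each quartile and had overlapping values. Ttk and Bub1b, the checkpoint kinase MPS1 and the protein BUBR1, differed by 0.28 and 0.02. A copy elsewhere in the genome matches part of the Mad2l1 transcript at 95.4% identity.

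Kinetochore genes, whose products join chromosomes to spindle fibres, had a median difference of -0.0039, with 3 above 0 and 3 below. Cenpa, the histone variant that marks centromeres, had the highest difference of all 50 members. It stood at 7.11, 6.49, 6.44 and 6.78 in Q1 and at 5.29, 6.70, 4.76 and 6.42 in Q4, so preparation 2 went the other way. The difference was 0.91 (SE 0.48, adjusted p = 0.344). Against Q3, where Cenpa stood at 4.17, 5.58, 6.27 and 4.75, the 4 values of Q1 were all higher (difference 1.51, SE 0.48, adjusted p = 0.140). Between Q1 and Q3 the values of 4 members, Cenpa, Ect2, Ube2c and Pttg1, did not overlap (8%, against 4.39% of all genes). Spc25, a subunit of the NDC80 complex, stood at 7.15, 5.94, 4.99 and 7.39 in Q1 and at 5.98, 6.68, 5.58 and 7.71 in Q4 (difference -0.12, SE 0.40, adjusted p = 0.921). Its partners Ndc80 and Nuf2 differed by -0.16 and -0.06, and the large kinetochore proteins Cenpe and Cenpf by 0.12 and 0.06.

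Spindle motors and microtubule-binding proteins differed in both directions, 3 above 0 and 5 below, with a median of -0.07. Hmmr, which helps focus spindle poles, stood at 2.30, 2.20, 2.26 and 3.17 in Q1 and at 2.23, 3.67, 3.98 and 3.56 in Q4. Preparations 2 and 3 held the gap and preparation 1 had none, and the difference was -0.88 (SE 0.38, adjusted p = 0.237). Kif20b, a kinesin that works in cytokinesis, stood at 4.78, 4.23, 4.58 and 5.75 in Q1 and at 3.91, 4.44, 2.81 and 5.55 in Q4 (difference 0.66, SE 0.47, adjusted p = 0.527). Ckap2, a microtubule-stabilising protein, stood lower in Q1 in all 4 preparations (difference -0.58, SE 0.37, adjusted p = 0.464). The spindle motors Kif11, Kif2c and Kif4, the spindle assembly factor Tpx2 and the microtubule bundler Nusap1 lay between -0.17 and 0.14.

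Cytokinesis genes had the lowest median of the roles, -0.27, with 4 of 6 below 0, where 59.6% of all genes lay above 0. Kif20a, a kinesin that carries passenger proteins to the central spindle, stood at 4.01, 4.08, 3.70 and 4.14 in Q1 and at 3.87, 5.20, 5.04 and 5.71 in Q4. The 4 values of Q1 were close together, and Q4 was above in preparations 2, 3 and 4 (difference -0.97, SE 0.39, adjusted p = 0.196). Against Q2, where Kif20a stood at 2.11, 4.09, 3.18 and 4.85, Q4 was higher in all 4 preparations (Q2 minus Q4 -1.40, SE 0.39, adjusted p = 0.111). Of the exon bases of Kif20a, 29.3% are shared with Cdc23 on the other strand, and the kit does not mark strand, so reads of the pair cannot be told apart there. Ccna2, Cdc25c, Kif4, Ncapg and Prc1 share 11.1% to 15.1% of their exon bases with a gene on the other strand. Anln, which links actin to the contractile ring, stood at 2.94, 2.51, 3.20 and 2.87 in Q1 and at 4.0, 3.36, 2.66 and 4.40 in Q4 (difference -0.73, SE 0.44, adjusted p = 0.432). Prc1, the bundler of the central spindle, differed by 0.18, its partner kinesin Kif23 by -0.18, and Racgap1 and Ect2, which steer the contractile ring through RHOA, by -0.36 and 0.28.

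Genes of chromosome structure stood a little higher in Q1 for 5 of 6 members, against 59.6% of all genes. Their median was 0.38, and none passed. Mki67 stood at 4.01, 2.53, 2.87 and 3.47 in Q1 and at 2.92, 2.57, 1.44 and 3.86 in Q4, above in Q1 in 2 preparations (difference 0.52, SE 0.47, adjusted p = 0.641). From Q1 to Q4 it was listed in 70.9%, 57.7%, 50.7% and 62.5% of cells. Top2a, the topoisomerase that untangles chromosomes, stood at 5.52, 5.63, 5.13 and 5.92 in Q1 and at 5.50, 6.19, 4.76 and 6.62 in Q4 (difference -0.22, SE 0.37, adjusted p = 0.837). With detected genes as a covariate both proliferation markers lay below 0 (Mki67 -0.28, Top2a -0.64), and with the log2 of mean FPKM both lay above 0 (0.30 and 0.03). Smc4, a core subunit of condensin, stood at 6.42, 5.03, 5.42 and 5.95 in Q1 and at 4.38, 5.64, 4.34 and 5.71 in Q4 (difference 0.69, SE 0.42, adjusted p = 0.436). The other condensin subunits Smc2, Ncapd2 and Ncapg differed by 0.29, 0.37 and 0.38. With such centring 5 of the 6 lay above 0, and with detected genes as a covariate 1 did.

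Genes grouped under anaphase and mitotic exit had a median difference of 0.39, with 4 of 5 above 0, against 59.6% of all genes. Pttg1, the securin that holds separase in check, stood at 7.63, 7.38, 7.20 and 7.41 in Q1 and at 6.48, 5.77, 7.08 and 7.12 in Q4. It was the one member whose values in Q1 and Q4 did not overlap (2%, against 5.85% of all genes), and Q1 was above in each preparation. The difference was 0.79 (SE 0.31, adjusted p = 0.185). Ube2c, the ubiquitin-conjugating enzyme of the anaphase-promoting complex, stood at 5.69, 4.96, 5.10 and 5.69 in Q1 and at 1.44, 4.27, 3.41 and 5.92 in Q2. Preparation 1 held the largest gap between them and preparation 4 had none (difference 1.60, SE 0.49, adjusted p = 0.556). Of the exon bases of Ube2c, 22.8% are shared with Tnnc2 on the other strand. Cdc20, the activator of that complex, and Cdca3 differed between Q1 and Q4 by 0.37 and 0.45, and Espl1, the separase, by -0.28. With such centring 4 of the 5 lay above 0, and with detected genes as a covariate 3 did.

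**Figure D4:**
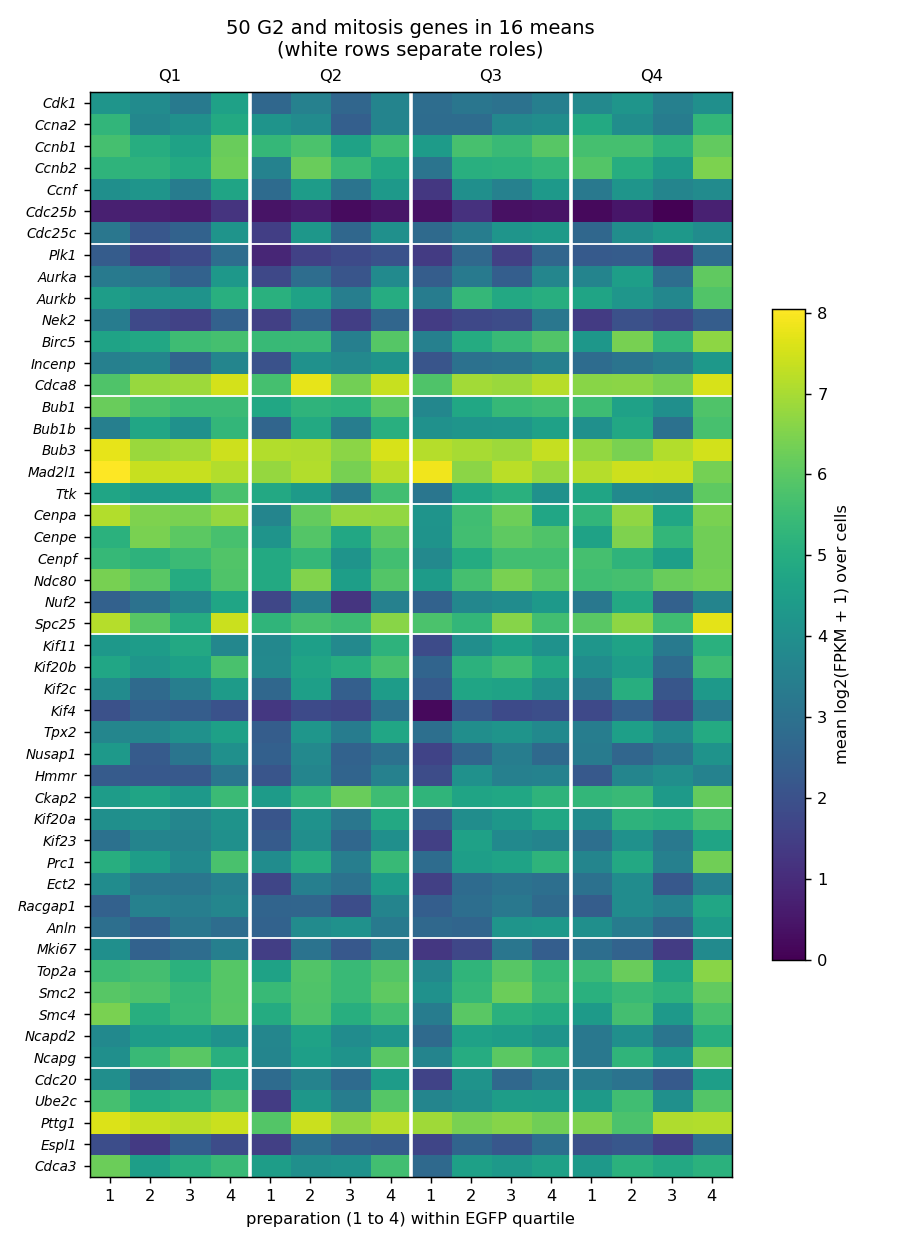
Mean log2(FPKM + 1) (colour) of the 50 genes (rows, grouped by role) in the 16 means of preparation and quartile (columns). The columns of preparation 1 in Q2 and Q3 are the darkest, and preparation 4 is the brightest of the 4 for 44 genes.

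The middle quartiles held the lower values of most members, and preparation 1 carried much of that pattern. Of the 50 genes, 27 had their highest mean in Q1, 17 in Q4, 4 in Q3 and 2 in Q2, and 22 had their lowest mean in Q3 and 17 in Q2. Among all genes tested 36.3% were highest in Q1 and 23.1% in Q4, and 26.9% were lowest in Q3 and 20.7% in Q2. Q1 stood above Q2 for 42 members (median 0.34, all genes 0.06) and above Q3 for 42 (median 0.39, all genes 0.10), while Q3 stood below Q4 for 39 (median -0.31, all genes 0.01). Of all genes tested 57.6%, 60.7% and 51.1% lay above 0 in Q1 minus Q2, Q1 minus Q3 and Q3 minus Q4. These pairs share quartiles and so are not independent. Without preparation 1 the same counts were 28, 31 and 28, with medians of 0.08, 0.12 and -0.08, beside 0.05, 0.07 and 0.03 for all genes. With detected genes as a covariate Q1 stood above Q2 for 30 members and above Q3 for 30. In preparations 1 to 4 the mean over members was 3.44, 4.54, 3.75 and 4.81 in Q2 and 3.12, 4.29, 4.44 and 4.45 in Q3. No single member passed between Q1 and Q2 (0.0192% of all genes did), Q1 and Q3 (0.98%), Q2 and Q3 (0.0%) or Q3 and Q4 (0.00961%). At an unadjusted p under 0.05 these pairs held 5, 8, 1 and 6 members (10%, 16%, 2% and 12%, against 5.73%, 12.3%, 7.37% and 6.58% of all genes), and Q2 against Q4 held 7 (14%, against 11.4%).

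Preparations differed more than quartiles for most members, as they did for most genes tested. Preparation 4 had the highest mean for 44 of the 50 genes, against 49.1% of all genes tested, and preparation 1 the lowest for 33, against 76.5%. The mean over members in preparations 1 to 4 was 3.78, 4.41, 4.06 and 4.84. For 40 members (80%, against 71.9% of all genes) the SD over preparation means was larger than that over quartile means. The number of genes detected per cell ranked the preparations in the same order, from preparation 1 through 3 and 2 to 4, and its part in the members' levels was not tested. Over the 300 cells, with the mean of each preparation and quartile subtracted, the mean over members correlated with the number of detected genes at r = 0.51, and both measures come from the same libraries.

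From cell to cell the members moved together, as a description over 300 cells with each preparation and quartile mean subtracted. Of 1225 pairs of members 1204 had a Pearson correlation above 0, with a median of 0.21 and a range from -0.09 to 0.53. The closest pair was Prc1 and Top2a, and the pairs of Prc1 with Ube2c (0.51) and with Mki67 (0.49) came next. The first principal component held 24.1% of the variance of the 50 genes and the second 3.38%. Pairs with the same role had a median of 0.22 and other pairs 0.21.

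Each member was also set against the mean of the other 49, and the median r was 0.44. Prc1 (0.68), Top2a (0.67), Ccnb1 (0.65), Ube2c (0.61) and Mki67 (0.59) stood at the top of that order. The lowest were Pttg1 (0.09), Mad2l1 (0.17) and Ncapd2 (0.18), although Pttg1 and Mad2l1 had 2 of the 3 highest listed levels. Neither Pttg1 nor Mad2l1 holds TTTGAA or CCAAT in its promoter window, but that window misses the gene start annotated in GENCODE. Nuf2 (0.49), Nusap1 (0.55) and Birc5 (0.58) also hold neither motif in their windows. Members with TTTGAA had a median r of 0.44 (33 genes) and members without it 0.45 (10 genes). With the number of detected genes per cell also regressed out the median r was 0.40. The median in preparations 1 to 4 was 0.36, 0.51, 0.46 and 0.50. All these values share library, depth and chip.

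**Figure D5:**
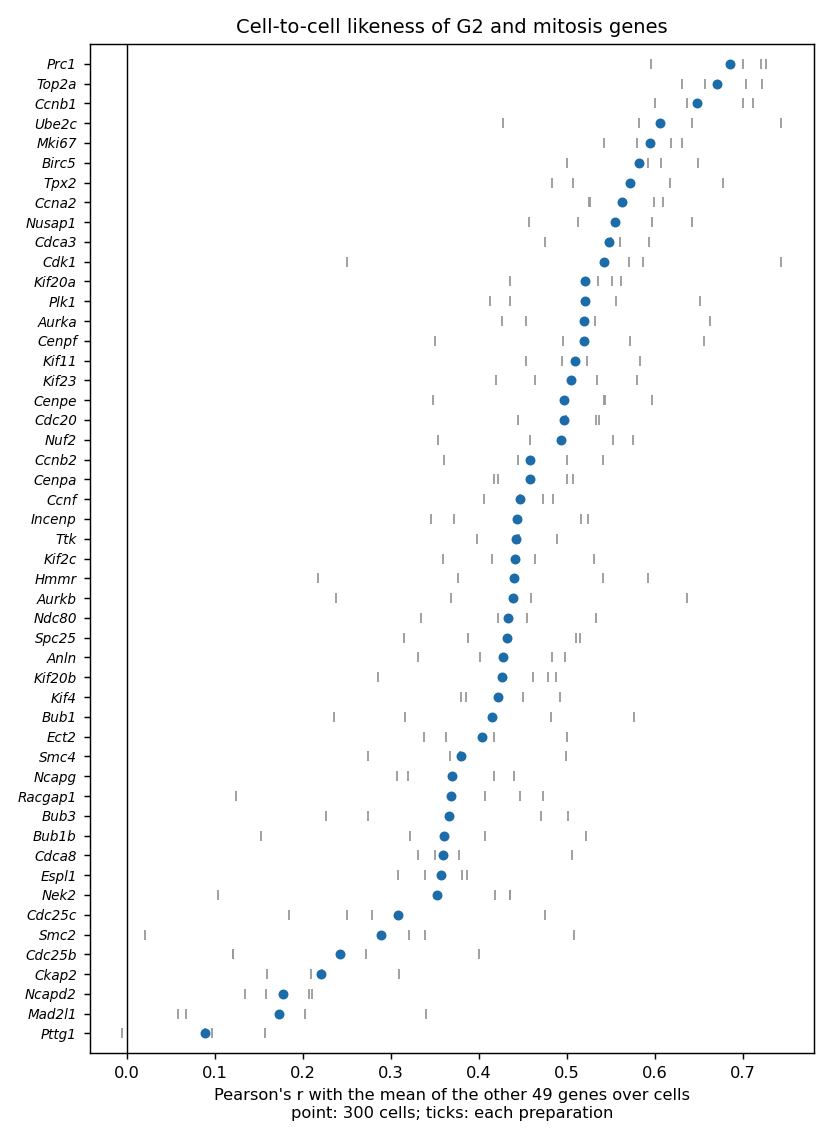
Pearson correlation of each of the 50 genes (y axis) with the mean of the other 49 over 300 cells (x axis), with preparation and quartile means subtracted; points use all cells and ticks each preparation. Prc1 (0.68) is at the top and Pttg1 (0.09) at the bottom.

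The 10 genes outside the list whose level followed the mean over members most closely were found by the same measure among 10361 other genes. They were the tubulin genes Tuba3a (0.61), Tubb4b (0.58) and Tuba3b (0.55), the CDK-binding subunit Cks2 (0.57), the chromatin protein Hmgb2 (0.57), the calmodulin gene Calm2 (0.56), the cohesin acetyltransferase Esco2 (0.56), the kinetochore scaffold Casc5 (0.48), Hn1 (0.48) and the microtubule destabiliser Stmn1 (0.48). The median of all other genes was 0.07 and the 99th percentile 0.32, and the lowest value of any of the 10 in a single preparation was 0.36 (Casc5). Reads of Tuba3a and Tuba3b are uncertain, since the 2 genes are near-identical copies. None of the 10 passed between Q1 and Q4, and the nearest was Stmn1 (difference -0.68, SE 0.19, adjusted p = 0.0529).

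Related pathways that are not part of the 50 genes were read from 8 lists, of which 140 of 142 genes were tested. Between Q1 and Q4, 4 were higher and 1 lower (3.57%, against 3.25% of all genes). Nipbl, which loads cohesin onto chromosomes, stood at 4.80 ± 0.43 in Q1 against 2.99 ± 0.49 in Q4 (SD, n = 4), which differ by 1.81 (SE 0.35, adjusted p = 0.00350). Of the kinetochore list (27 genes), Cenph was higher by 1.73 (SE 0.38, adjusted p = 0.0106) and Cenpq by 1.16 (SE 0.32, adjusted p = 0.0457), both parts of the inner kinetochore. Of the anaphase-promoting complex (17 genes), the small subunit Cdc26 was higher by 1.31 (SE 0.36, adjusted p = 0.0395). Sycp3, a structural protein of meiotic chromosomes, had a difference of -0.76 (SE 0.21, adjusted p = 0.0377). Nipbl, Cenph and Cenpq also passed for the trend. Of 15 alternatives Nipbl passed in 13, Cenph in 10, Sycp3 in 6, Cdc26 in 5 and Cenpq in 3. Without the preparation block none of the 5 passed. Cdc26 and Cenpq did not pass when any 1 of the 4 preparations was left out, Cenph when preparation 3 was, and Sycp3 when preparation 2, 3 or 4 was.

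No gene passed in the lists of mitotic entry control (12 genes), G2/M transcription factors (12), centrosome and spindle poles (19) and DNA replication (25). Their smallest adjusted p between Q1 and Q4 belonged to the PP2A inhibitor Ensa (difference 0.68, adjusted p = 0.168), the MuvB subunit Lin54 (0.78, adjusted p = 0.186), the centrosomal protein Cdk5rap2 (0.89, adjusted p = 0.156) and the replicative helicase subunit Mcm4 (1.03, adjusted p = 0.0944). Mcm4 passed in 2 of 15 alternatives, without preparation 4 (1.54, adjusted p = 0.0365) and without cells of another type (1.28, adjusted p = 0.0466), and over all 15 its adjusted p ran from 0.0365 to 0.791. From cell to cell the mean of the centrosome list followed the mean over members at r = 0.71, that of the other kinetochore genes and of mitotic entry control at 0.65 each, and that of DNA replication at 0.52. The list of meiotic prophase followed at 0.39 and the G2/M transcription factors at 0.31. These are descriptions over the same 300 cells.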

How the data were processed

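The authors deposited 1 table of FPKM values per gene and cell. Its header names no unit, and FPKM was inferred because the submitters' processing notes list Cufflinks, beside TopHat, FastQC, Picard and the mouse builds GRCm38 and mm10, with no version numbers. According to the labels' protocols, imaging served to leave out dead cells and multiplets, and a SMARTer kit gave the cDNA.

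Means over cells of log2(FPKM + 1) were taken per preparation and quartile (16 means). limma 3.58.1 in R 4.3.3 was fitted with quartile and, as a block, preparation, with trended and robust variances, 6 pairs and a trend. Genes at 1 FPKM or more in 30 or more cells were tested, and the threshold was 0.05. For each pair and the trend separately, p-values were Benjamini-Hochberg adjusted over all 10411 genes, with no adjustment across them. A difference on this scale understates the change of low genes. The preparation, n = 4, was the replicate. Same-numbered means come from the same animals, and within a preparation deviations from quartile means had correlations of 0.0112 to 0.360 (24 pairs, median 0.129). Between preparations the correlations ran from -0.249 to 0.137 (72 pairs, median -0.0431), so the ranges overlapped. The fit was checked on simulated data.

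Preparation values are given for the 10 members with the widest Q1 to Q4 difference, the 5 most abundant, Mki67, Top2a, Cdk1, Ccnb1 and Plk1, and for Ube2c, which was added after its values were seen. List genes are named if they passed, or as the smallest p of a list, and the 10 outside genes by correlation. Members, lists and rules were chosen with earlier results of these data known. Another cell type was assigned where 3 or more, and 50% or more, of its measured markers reached 5 FPKM. Transcript copies were sought with minimap2 in GENCODE vM21, and motifs by exact match.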

Additional observations from a re-analysis of the deposited data

Results flagged for a closer look

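In 80 groups of 4 preparation means (20 quantities in 4 quartiles), 2 held a value that stood far apart from the other 3, where chance gives about 5% of such groups. Hmmr in Q1 stood at 3.17 in preparation 4 and at 2.3, 2.20 and 2.26 in preparations 1 to 3. The mean over the 50 members in Q3 stood at 3.12 in preparation 1 and at 4.29, 4.44 and 4.45 in preparations 2 to 4.

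Cells of preparation 1 in Q3 listed 4188 genes at 1 FPKM or more on average, against 4652 in Q1 of the same preparation and 5730 to 6130 in Q3 of the others. A median of 34 members was listed per cell in preparation 1, against 40.5, 37 and 44 in preparations 2 to 4. The part of detected genes in that low value was not tested.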

How the results depend on the processing

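The count of 0 members between Q1 and Q4 held in all 15 alternatives. The 1 call in the other pairs, Aurka between Q2 and Q4, became 0 with no replicate block, a pseudocount of 0.1, no filter, the log2 of mean FPKM, equal FPKM sums, detection shares, without cells of another type, and without each preparation (0 to 0). The trend gave 0 to 1 members when preparations were left out. Of the 140 list genes 5 passed in the fit reported, 0 without the replicate block, 1 with log2 of mean FPKM or the detected-gene covariate, 2 without a filter or on detection shares, 3 with a pseudocount of 0.1, centring or plain variances, 6 without cells of another type, and 1 to 3 without 1 preparation. Causes were not tested.

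Of 300 alternative values for named members 276 kept sign and side of the threshold and 13 changed sign, each smaller than its SE. With the covariate these were Bub1 (-0.0833), Mki67 (-0.28) and Plk1 (0.0345). On detection shares they were Cdca8 (0.0158) and Cdk1 (-0.0281), without cells of another type Spc25 (0.0408), with log2 of mean FPKM Top2a (0.0270), and centred Cdk1 (-0.0536). Without 1 preparation Cdca8 ran from -0.21 to 0.20, Spc25 from -0.55 to 0.0844, Cdk1 from -0.0385 to 0.265 and Plk1 from -0.2554 to 0.2551. Over all genes, centring took the median Q1 minus Q4 difference from 0.10 to -0.08, and the calls from 283 higher and 55 lower to 145 and 106. Without the block they were 86 and 13. The score, detection share and likeness moved by less than their spread. A count of 0 here leaves differences within each gene's 95% interval possible, and depth per cell is known only as a ratio.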

Other observations

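The genes whose level went most strongly against the mean over the 50 members within preparation and quartile were named after their values were seen. The lowest of 10361 genes was Gm13826 (r = -0.42), and Gm6251 (-0.37) and Ppfibp2 (-0.27) were also among the 10 lowest. Ppfibp2 was higher in Q1 than in Q4 by 2.29 (SE 0.43). Among these 10 were the ribosomal protein genes Rpl35 (-0.39), Rpl13a (-0.35), Rpl21 (-0.34), Rpl32 (-0.34) and Rpl4 (-0.33). Also among them were the ETS factor gene Etv5 (-0.30) and the ERK phosphatase gene Dusp6 (-0.27), which were higher in Q1 than in Q4 by 3.74 (SE 0.37) and 4.29 (SE 0.42). For Etv5 the values in preparations 1 to 4 were -0.24, -0.29, -0.30 and -0.37, and with detected genes regressed out the value over all cells was -0.16. For Dusp6 they were -0.19, -0.30, -0.34 and -0.24, and -0.17. The mean of the 10 undifferentiated spermatogonium markers, of which Etv5 is 1, stood at r = -0.19 against the members. Taken singly, these markers ran from -0.30 (Etv5) to 0.11, with a median of -0.07. The mean of the leukocyte markers stood at -0.03, of the spermatid markers at -0.03 and of the pachytene spermatocyte markers at 0.23. Ribosomal protein genes have many near-identical copies, so their reads are uncertain. These are correlations over 300 cells that share libraries and chips.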
